A study of Mus musculus with 22 samples.

Results

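The Myc and Max network genes were followed across the 6 epithelial cell types sorted from mouse colon crypts. The set was chosen by name and holds 10 of the 24421 genes counted: Myc, Mycn and Mycl, their partner Max, the Mxd genes Mxd1, Mxd3, Mxd4 and Mxi1, and Mga and Mlx. All 10 were present in the count tables of all 22 libraries and passed the filter on low counts.

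Myc is a transcription factor that drives ribosome production, metabolism and cell division, and it is needed for the renewal of intestinal crypts, where Wnt signalling keeps it on. Myc, Mycn and Mycl bind DNA only as dimers with Max, at E-box sequences of which CACGTG is the best known. Mxd proteins compete for the same partner and the same sites, recruit Sin3 and histone deacetylases and repress transcription, so the Mxd genes are classed as antagonists of Myc and rise in many tissues as cells stop dividing. Mga is a large Max partner found in a repressive complex, and Mlx is a relative of Max that pairs with Mxd1, Mxd4, Mnt and the glucose-responsive factors Mlxip and Mlxipl.

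All samples came from wild type, untreated male C57BL/6N mice aged 5 to 7 weeks, and live Epcam+ Cd31- Cd45- colon cells were split further by Cd44, Cd24 and Ckit. Stem cells were Cd44highest Cd24low Ckit- (3 libraries) and absorptive progenitors, AbsPro, were Cd44med/hi Cd24low Ckit- (3 libraries). SecPDG, which takes in secretory progenitors, deep crypt secretory cells and goblet cells, was Cd44hi Cd24med Ckitmed (4 libraries), and Tuft was Ckit+ Cd24hi (5 libraries). Enterocytes, Ent, were Cd44low/- Cd24- (5 libraries), and enteroendocrine cells, EEC, were Cd44low/- Cd24+ (2 libraries). Replicates were separate sorts from separate mice, and each population is a gate and not a pure type. In the paper, Stem and AbsPro libraries came from single mice. Cells or RNA of more mice were pooled for every SecPDG, Tuft, Ent and EEC library, so pooling of mice follows cell type. In such bulk samples fewer cells of a type and less RNA per cell cannot be told apart.

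Levels are given as normalized counts, the reads on a gene scaled between libraries by the trimmed mean of M values (TMM). A gene was called changed at a Benjamini-Hochberg adjusted p under 0.01 over all 22781 genes tested with edgeR's quasi-likelihood test, and only where its normalized counts averaged 50 or more. Libraries held 4122122 to 22462518 reads on genes. Reads outside genes here are aligned reads counted on no annotated feature, which may include reads in introns. Their share is taken of these reads, ambiguous reads and reads on genes together, and not of all reads. This share was 40.9 to 49.4% in the Stem, AbsPro and SecPDG libraries, 43.4 to 68.0% in Tuft, 66.8 to 83.1% in Ent, and 64.5 and 89.7% in EEC. Against Stem, the median log2 fold change of all genes was -0.28 in Ent and -0.31 in EEC with TMM, and 0.36 and 0.52 with DESeq2 size factors, so directions are given with the scalings under which they turned. Without the 4 libraries that had over 80% of reads outside genes (Ent replicates 1, 2 and 3 and EEC replicate 1), EEC rests on 1 library, which is then assumed to vary like the other groups.

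The labels were checked against marker genes before the results were read. The summed normalized counts of 7 stem markers were 25921 to 31833 in Stem, 8726 to 12942 in AbsPro, SecPDG and Tuft, and 1809 to 2907 in Ent and EEC. These markers include Cd44, whose protein was used in the sort, so part of this check was set by the gates. Those of 7 tuft markers were 28787 to 77102 in Tuft and at most 9829 elsewhere, and those of 9 enteroendocrine markers were 632767 and 1819100 in EEC and at most 34753 elsewhere. The sums of 9 goblet and deep crypt secretory markers were 887294 to 3490730 in SecPDG and 862531 to 1277440 in Tuft. They were also high in Ent, at 250915 to 754118, against 23012 to 37606 in Stem, and 6 of the 9 were called higher in Ent than in Stem, led by Clca1 (6.38 on the log2 scale), Zg16 (5.15) and Fcgbp (4.33). Enterocyte markers summed to 55113 to 81287 in Ent, to 71642 to 109336 in AbsPro, and to 24500 and 144933 in EEC replicates 1 and 2. Markers of cells that the sort should remove also differed between the groups. The sums of 8 stromal markers were 100.4 to 270.0 in Stem, 779 to 1608 in Ent and 2396 to 3576 in EEC, and 3 of them, Col1a1, Pdgfra and Vim, were called higher than in Stem in both Ent and EEC. Those of 4 endothelial markers were 10.1 to 19.9 in Stem, 179 to 619 in Tuft, 353 to 828 in Ent and 873 to 1416 in EEC, and 2 were called higher in Tuft, 4 in Ent and 3 in EEC. Immune marker sums overlapped, at 1166 to 2041 in Stem, 1895 to 3887 in Tuft, 754 to 1417 in Ent and 728 to 2992 in EEC, although Ptprc was called higher than in Stem in all of Tuft, Ent and EEC and Cd74 lower. Most calls of the members lie in the same comparisons of Ent and EEC, and the part of these cells in them was not tested.

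Myc was highest in Stem, lower in both progenitor populations and Tuft, and lowest in Ent and EEC. Its normalized counts were 3486, 2602 and 3191 in Stem, 1362, 1276 and 1197 in AbsPro, and 1448, 1611, 1462 and 1552 in SecPDG. Tuft libraries held 353, 876, 1074, 724 and 1135, Ent libraries 91.2, 238, 158, 447 and 443, and the EEC libraries 386 and 69.2. Every Stem library lay above every other library. With TMM, Stem, SecPDG, AbsPro and Tuft followed each other in that order without overlap. Myc in AbsPro did not differ from SecPDG beyond the threshold (log2 fold change -0.25, SE 0.44, edgeR adjusted p = 0.877), and this value was -0.09 when scaled by library totals. Tuft and Ent overlapped, since the lowest Tuft library lay below the highest Ent libraries, and the EEC libraries lay on both sides of the Ent median.

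**Figure D1:**
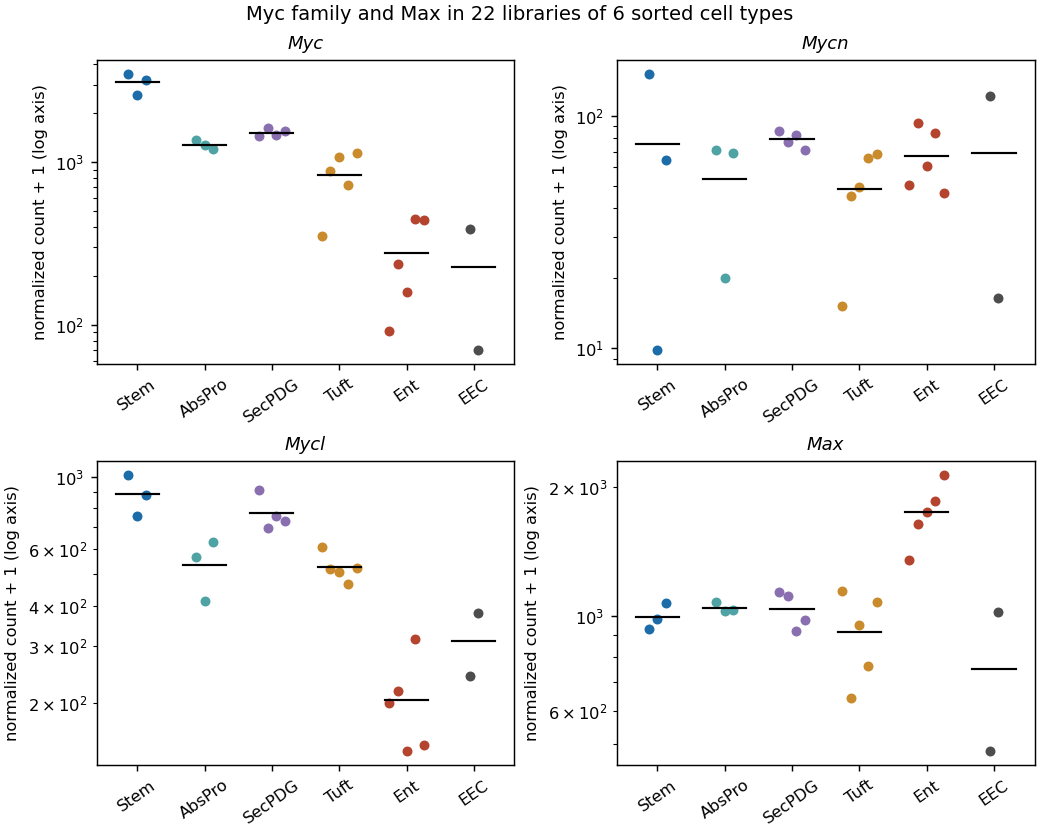
Normalized counts plus 1, on a log axis, of Myc, Mycn, Mycl and Max in the 6 sorted cell types, where each point is a library and the black line is the group mean. The 3 Stem libraries of Myc sit between 2602 and 3486 and the 5 Ent libraries between 91.2 and 447, while for Max the Ent libraries sit highest, between 1353 and 2138.

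Relative to Stem, Myc fell by 3.49 on the log2 scale in Ent (SE 0.43, edgeR adjusted p = 4.04e-07), or 11.2-fold, which was -2.69 without the 4 libraries, and by 3.78 in EEC (SE 0.63, edgeR adjusted p = 4.04e-05). The EEC value depended on the library kept, at -5.64 without EEC replicate 1 and -3.00 without EEC replicate 2, was -2.74 with DESeq2 size factors, and was no longer called in a fit of only Stem and EEC (-3.23, edgeR adjusted p = 0.0559). In Tuft it fell by 1.89 (SE 0.41, edgeR adjusted p = 0.00165), a call that was lost without Stem replicate 1 (-1.80, edgeR adjusted p = 0.0110) and after subtraction of an estimated background (-1.68, edgeR adjusted p = 0.0132). The differences of AbsPro and SecPDG from Stem did not pass the threshold, with log2 fold changes of -1.27 (SE 0.48, edgeR adjusted p = 0.255) and -1.03 (SE 0.44, edgeR adjusted p = 0.172), although the libraries did not overlap. Without the 4 libraries rich in reads outside genes, all of which belong to Ent and EEC, both passed, at -1.26 (edgeR adjusted p = 0.00414) and -1.07 (edgeR adjusted p = 0.00214). The 5 comparisons with Stem share the same 3 Stem libraries.

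Along the absorptive lineage Myc was lower in Ent than in AbsPro, the progenitor population it matures from, by 2.21 on the log2 scale (SE 0.42, edgeR adjusted p = 0.000687), which was -1.44 without the 4 libraries (edgeR adjusted p = 0.00612) and was no longer called after subtraction of the estimated background (-1.91, edgeR adjusted p = 0.0106). EEC differed from SecPDG by -2.75 (SE 0.58, edgeR adjusted p = 0.000690), which was -1.72 with DESeq2 size factors and no longer passed (edgeR adjusted p = 0.0135), and which was -4.66 without EEC replicate 1 and -1.98 without EEC replicate 2. Myc in Tuft did not differ from SecPDG beyond the threshold (-0.87, SE 0.38, edgeR adjusted p = 0.131). The estimated background made up 2.75 to 39.4% of the Myc count in Ent libraries and 14.5 to 15.2% in EEC, against at most 2.97% in the other types. The stem marker sums given above were also highest in Stem and lowest in Ent and EEC. They overlapped among AbsPro, SecPDG and Tuft. The part of the makeup of each gate in the Myc differences was not tested.

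Mycl, which in mice is expressed in several epithelia and acts like a weaker Myc, showed a similar ranking with smaller steps. Its normalized counts were 1012, 756 and 880 in Stem, 566, 413 and 626 in AbsPro, and 909, 692, 758 and 732 in SecPDG. Tuft held 605, 519, 508, 467 and 523, Ent 199, 218, 142, 315 and 148, and EEC 243 and 380. Stem and SecPDG overlapped, AbsPro and Tuft overlapped below them, and all Ent and EEC libraries lay below all libraries of the other 4 types. Mycl fell in Ent against Stem by 2.11 on the log2 scale (SE 0.29, edgeR adjusted p = 2.74e-06) and in EEC against Stem by 1.50 (SE 0.39, edgeR adjusted p = 0.00390). It also fell in Ent against AbsPro by 1.39 (SE 0.29, edgeR adjusted p = 0.00194) and in EEC against SecPDG by 1.31 (SE 0.37, edgeR adjusted p = 0.00772). Of these 4 calls, the first alone remained without the 4 libraries; for Mycl the others then gave -1.16 (edgeR adjusted p = 0.0431), -1.13 (edgeR adjusted p = 0.0434) and -0.93 (edgeR adjusted p = 0.103). The same 3 were lost with DESeq2 size factors, where Mycl gave -0.81 in EEC against Stem (edgeR adjusted p = 0.0330), -0.81 in Ent against AbsPro (edgeR adjusted p = 0.0165) and -0.65 in EEC against SecPDG (edgeR adjusted p = 0.0672). Without EEC replicate 1 both EEC calls were lost (edgeR adjusted p = 0.0160 against Stem and 0.0256 against SecPDG), the former also without Stem replicate 1 (edgeR adjusted p = 0.0144). The EEC against SecPDG call of Mycl was lost too, at edgeR adjusted p = 0.0104 to 0.0159, without SecPDG replicate 1, 3 or 4, Tuft replicate 2 or Ent replicate 2.

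Mycn, the family member best known from the nervous system and embryo, was low everywhere. Its normalized counts were 150, 8.79 and 63.4 in Stem, 70.2, 18.9 and 68.4 in AbsPro, and 84.9, 76.2, 81.9 and 70.4 in SecPDG. Tuft held 14.2, 44.0, 48.1, 64.4 and 67.2, Ent 49.5, 92.1, 59.8, 83.2 and 45.4, and EEC 120 and 15.4. Each type overlapped with its neighbours in the order of means, although all SecPDG libraries lay above all AbsPro and Tuft libraries. The Stem libraries held both the lowest and the highest value, and the test over the 6 types did not pass (edgeR adjusted p = 0.968). Estimated background made up 16.9 to 83.1% of the Mycn counts in Ent and 53.2 to 78.0% in EEC. Per kilobase of exon, the scale on which genes can be compared, Mycn averaged 27.7 in Stem against 1323 for Myc and 241 for Mycl, and Myc made up 81.7 to 84.1% of the 3 together in Stem, 68.8 to 82.0% in AbsPro and SecPDG, 34.8 to 76.8% in Ent, and 59.7 and 21.3% in EEC.

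Max, the shared partner, differed less between the cell types than Myc and was highest in Ent. Its normalized counts were 929, 980 and 1072 in Stem, 1075, 1026 and 1032 in AbsPro, and 1135, 1112, 919 and 976 in SecPDG. Tuft held 1140, 640.1, 954, 762 and 1075, Ent 1353, 1637, 1747, 1855 and 2138, and EEC 481 and 1019. The Ent libraries all lay above every other library, and the other 5 types overlapped with their neighbours. Max passed the test over the 6 types (edgeR adjusted p = 0.00546).

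Against Stem, Max gave a log2 fold change of 0.81 in Ent (SE 0.29, edgeR adjusted p = 0.0210), short of the threshold. It passed without the 4 libraries (1.11, edgeR adjusted p = 0.00137), without EEC replicate 2 (edgeR adjusted p = 0.00714) and with DESeq2 size factors (1.39, edgeR adjusted p = 1.65e-05). The other log2 fold changes of Max from Stem were 0.07 in AbsPro (SE 0.31, edgeR adjusted p = 1), 0.06 in SecPDG (SE 0.29, edgeR adjusted p = 0.978), -0.12 in Tuft (SE 0.28, edgeR adjusted p = 0.767) and -0.40 in EEC (SE 0.35, edgeR adjusted p = 0.360). The sign turned with the scaling in SecPDG, Tuft and EEC, for instance to 0.24 in EEC with DESeq2 size factors. Ent against AbsPro gave 0.74 for Max (SE 0.29, edgeR adjusted p = 0.0411), 1.33 with DESeq2 size factors and 1.28 with library totals. DESeq2 called Max in that comparison and in Ent against Stem (1.39, adjusted p = 3.29e-11). In Ent against Stem, edgeR called Max with library totals (edgeR adjusted p = 2.78e-05) and with background subtracted (edgeR adjusted p = 0.000275). It did so with only those types fitted (edgeR adjusted p = 0.00122), but not with the replicate number as a block.

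Max RNA was also read for the skipping of a short coding exon, printed here because the shorter and the longer form of Max differ by it. The exon lies on the minus strand of chr12:76961263-76961289 (GRCm38), is 27 bases long and is coding in the 2 of 7 annotated Max transcripts that hold it, while 1 joins its neighbours directly. In the second line the small letters are the end of the exon before it and the capitals the start of the exon after it.
Max 27-base exon: GAAGAGCAACCGAGGTTTCAATCTGCG
Max junction without it: gaggtggagagcgacGCTGACAAGCGGGCT
Joining reads are the deposited inclusion counts, which also take in reads lying within an exon, and they are printed without correction for length. Reads joining the exon and reads skipping it numbered 0 and 215, 28 and 67, and 28 and 52 in the Stem libraries, and 26 and 38, 0 and 91, and 5 and 54 in AbsPro. SecPDG libraries held 0 and 255, 4 and 35, 13 and 74, and 22 and 43, Tuft libraries 0 and 37, 5 and 26, 0 and 15, 9 and 33, and 6 and 51. Ent libraries held 14 and 38, 11 and 74, 24 and 78, 12 and 63, and 4 and 88, and in EEC 1 library had no read on the event and the other 0 and 73. Skipping reads outnumbered joining reads in every library with reads, and libraries with no joining read occurred in every type but Ent. This exon was singled out after its values were seen; the Max event with the most reads, a 124-base exon tested in Ent, had 91 to 330 joining reads in each library and 3 skipping reads in all 8 together.

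The Mxd genes differed among themselves: Mxd1 was by far highest in Ent, Mxd4 in SecPDG and Tuft, Mxd3 was near absent in EEC, and Mxi1 overlapped among all types. Mxd1 is the founding antagonist of Myc and is known for rising as epithelial and blood cells mature. Its normalized counts were 383, 513 and 419 in Stem, 1447, 803 and 1756 in AbsPro, and 611, 1352, 344 and 467 in SecPDG. Tuft held 945, 732, 872, 927 and 682, Ent 9369, 11293, 12026, 10938 and 9947, and EEC 1374 and 2452. The Ent libraries stood apart, the lowest of them lying above every other library, and all AbsPro, Tuft and EEC libraries lay above all Stem libraries.

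Mxd1 rose in Ent against Stem by 4.61 on the log2 scale (SE 0.44, edgeR adjusted p = 1.01e-08), or 24.4-fold, and was 4.68 without the 4 libraries and 5.22 with DESeq2 size factors. It rose in EEC against Stem by 2.12 (SE 0.44, edgeR adjusted p = 0.000558), which was 2.80 with DESeq2 size factors. AbsPro gave 1.61 (SE 0.40, edgeR adjusted p = 0.0460), Tuft 0.92 (SE 0.36, edgeR adjusted p = 0.0509) and SecPDG 0.66 (SE 0.37, edgeR adjusted p = 0.312), none past the threshold. For Mxd1 in AbsPro the call was made without EEC replicate 1 (edgeR adjusted p = 0.00235), without all 4 libraries (1.63, edgeR adjusted p = 0.00245) and by DESeq2 (adjusted p = 0.000881), and in Tuft by DESeq2 (adjusted p = 0.00164).

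From AbsPro to Ent, Mxd1 rose by 3.00 on the log2 scale (SE 0.40, edgeR adjusted p = 1.89e-05), while Tuft against SecPDG gave 0.26 (SE 0.32, edgeR adjusted p = 0.581). The difference between these maturation steps was itself tested and was 2.74 (SE 0.49, edgeR adjusted p = 0.00227), a call that was lost without AbsPro replicate 2 (2.48, edgeR adjusted p = 0.0235). EEC lay above SecPDG by 1.47 (SE 0.40, edgeR adjusted p = 0.00621) for Mxd1, a call that several single libraries decided. It was lost without EEC replicate 2 (0.99, edgeR adjusted p = 0.0657), without SecPDG replicate 1, 3 or 4 (edgeR adjusted p = 0.0178, 0.0269 and 0.0251), and in a fit of only those types (1.96, edgeR adjusted p = 0.0205). Estimated background was 0.22 to 0.77% of the Mxd1 count in Ent. Of the 8 enterocyte markers, 3 were also called higher in Ent than in AbsPro, Aqp8 (3.90), Ceacam20 (3.28) and Car4 (3.22). The sums of all 8 overlapped but ran lower in Ent (55113 to 81287) than in AbsPro (71642 to 109336). The part of enterocyte content in the Mxd1 values of Ent and EEC was not tested.

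**Figure D2:**
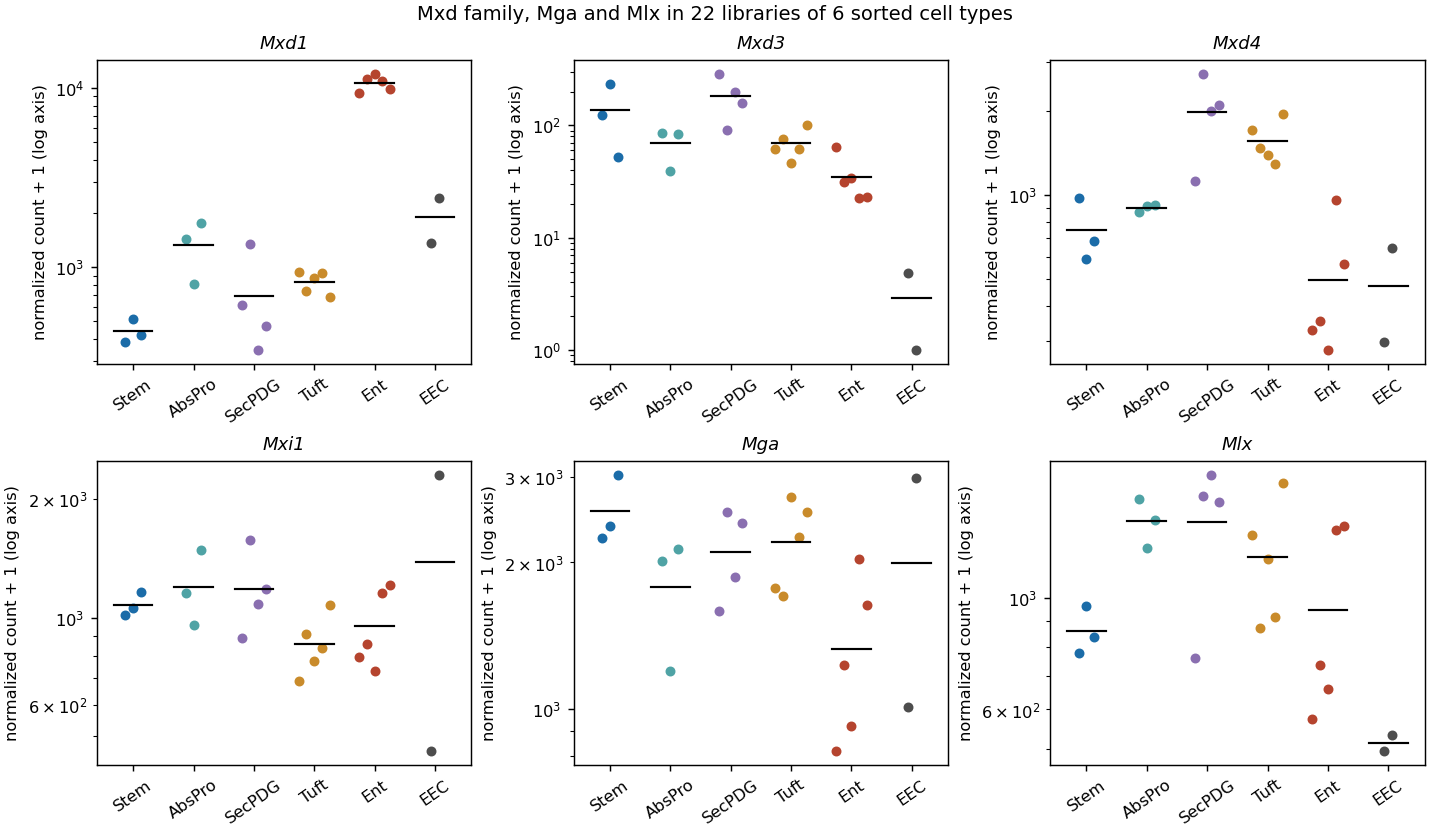
Normalized counts plus 1, on a log axis, of Mxd1, Mxd3, Mxd4, Mxi1, Mga and Mlx in the 6 sorted cell types, where each point is a library and the black line is the group mean. Mxd1 in Ent (9369 to 12026) stands above all other libraries, Mxd3 in EEC is at 3.82 and 0, and Mxi1 overlaps among all types.

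Mxd4, an antagonist of the same family, had normalized counts of 970.0, 587 and 684 in Stem, 869, 908 and 916 in AbsPro, and 1116, 2709, 1989 and 2097 in SecPDG. Tuft held 1701, 1468, 1389, 1283 and 1950.1, Ent 328, 352, 277, 955 and 565, and EEC 296 and 645. All SecPDG and Tuft libraries lay above all libraries of the other 4 types, and Stem, Ent and EEC overlapped. Mxd4 passed the test over the 6 types (edgeR adjusted p = 1.88e-05) and fell in EEC against SecPDG by 2.07 on the log2 scale (SE 0.46, edgeR adjusted p = 0.00118), which was -2.74 without EEC replicate 2 and -1.42 with DESeq2 size factors. The call was lost in a fit of only those types (-1.61, edgeR adjusted p = 0.0138). The differences from Stem did not pass, at 1.40 in SecPDG (SE 0.38, edgeR adjusted p = 0.0192) and 1.06 in Tuft (SE 0.36, edgeR adjusted p = 0.0287). For Mxd4 in SecPDG the call was made by DESeq2 (adjusted p = 1.65e-06), with DESeq2 size factors (edgeR adjusted p = 0.000324), without the 4 libraries (edgeR adjusted p = 0.000166) and by the edgeR 4 form of the fit (adjusted p = 0.00294). The goblet marker sums given above were highest in the same SecPDG and Tuft libraries, and their part in the Mxd4 levels was not tested.

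Mxd3, a family member expressed in dividing cells, was low and followed a different order. Its normalized counts were 122, 231 and 51.3 in Stem, 84.4, 38.7 and 82.3 in AbsPro, and 287, 89.3, 196 and 156 in SecPDG. Tuft held 60.6, 74.7, 45.4, 60.8 and 99.0, Ent 63.4, 30.3, 33.0, 21.7 and 21.9, and EEC 3.82 and 0. The EEC libraries held 2 reads together, against 565 in Stem, a ratio at equal depth of 75.7 with a 95% exact counting interval of 20.9 to 627, and against 726 in SecPDG, a ratio of 89.2 (24.6 to 738). Both EEC differences passed the test (edgeR adjusted p = 0.00156 against Stem and 0.000869 against SecPDG), and the first was lost without EEC replicate 2 (edgeR adjusted p = 0.0110). Both were lost for Mxd3 in fits of only the types compared (edgeR adjusted p = 0.131 and 0.0536). In Ent, Mxd3 gave -1.98 against Stem (SE 0.78, edgeR adjusted p = 0.0358), and the edgeR 4 form called it (adjusted p = 0.00297). Estimated background was 32.2 to 59.2% of the Mxd3 count in Ent and above the count itself in the EEC library with reads. Exons of Mxd3 share 105 bases with Prelid1 on the other strand, and the counting did not use strand.

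Mxi1, the antagonist also known as Mxd2, had normalized counts of 1013, 1055 and 1163 in Stem, 1153, 958 and 1484 in AbsPro, and 886, 1574, 1082 and 1183 in SecPDG. Tuft held 690.03, 908, 775, 836 and 1076, Ent 792, 857, 730.03, 1151 and 1212, and EEC 457 and 2304. The lowest and the highest of all Mxi1 values were the EEC libraries, and all 6 types overlapped (test over the 6 types, edgeR adjusted p = 0.473). Without the 4 libraries, which leaves the higher EEC library alone, Mxi1 was called higher in EEC than in Stem (1.15, edgeR adjusted p = 0.00587) and than in SecPDG (1.07, edgeR adjusted p = 0.00729), and DESeq2 called the former as well (0.84, adjusted p = 0.00765). Per kilobase, Mxd1 made up 11.0 to 14.2% of the 4 Mxd genes together in Stem, 78.8 to 88.7% in Ent, and 56.6 and 36.8% in EEC. Mxd4 made up 31.4 to 47.6% in SecPDG and 39.3 to 48.4% in Tuft, against 2.46 to 8.29% in Ent.

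Mga and Mlx, the remaining members, did not pass the test over the 6 types. Mga had normalized counts of 2243, 2375 and 3025 in Stem, 2014, 1195 and 2129.7 in AbsPro, and 1588, 2544, 1865 and 2407 in SecPDG. Tuft held 1769.6, 1708, 2727, 2254 and 2538, Ent 818, 1228, 920.5, 2034 and 1637, and EEC 1009 and 2981. All types overlapped with their neighbours, and Mga did not pass the test over the 6 types (edgeR adjusted p = 0.147). Its lowest mean was in Ent, at a log2 fold change of -0.94 from Stem (SE 0.33, edgeR adjusted p = 0.0218), which the edgeR 4 form called (adjusted p = 0.00996) and which was -0.37 without the 4 libraries (edgeR adjusted p = 0.301).

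Mlx had normalized counts of 777, 962 and 836 in Stem, 1577, 1259 and 1429 in AbsPro, and 757, 1599, 1758 and 1556 in SecPDG. Tuft held 1334, 872, 1198, 918 and 1697, Ent 572, 736, 658, 1363 and 1391.5, and EEC 495 and 533. With TMM, the EEC libraries lay below every other library and the AbsPro libraries above all Stem libraries, while the rest overlapped. The direction of Mlx in EEC against Stem turned with the scaling, from -0.74 with TMM to 0.04 with DESeq2 size factors. Mlx fell in EEC against SecPDG by 1.46 on the log2 scale (SE 0.41, edgeR adjusted p = 0.00731), and this call was lost without the 4 libraries (-1.30, edgeR adjusted p = 0.0124) and with DESeq2 size factors (-0.68, edgeR adjusted p = 0.0436). It was also lost without SecPDG replicate 3 or 4 or EEC replicate 2 (edgeR adjusted p = 0.0208, 0.0172 and 0.0154). Over the 6 types Mlx did not pass (edgeR adjusted p = 0.0176). Exons of Mlx share 385 bases with Psmc3ip on the other strand.

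Windows of 250 bases before annotated start sites were searched for the E-box letters CACGTG, which read the same on both strands, because Myc, Mxd4 and Mlx dimers are known to bind them. RefSeq promoters (GRCm38.p6) matched 9 of the 10 members, all but Myc, and 2 of them held the letters, Mxd4 and Mlx, against 6.86% of 27025 genes. The Mxd4 match lies 219 bases before the start, in chr5:34187912-34187941 on the minus strand, and the Mlx match 40 bases before the start, in chr11:101087238-101087267 on the plus strand, with the E-box in capitals.
Mxd4: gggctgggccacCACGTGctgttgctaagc
Mlx: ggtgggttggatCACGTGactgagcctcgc
A match is a description of the letters, and no match says only that they are not in that window.

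Of the 10 members, 1 was called in Tuft against Stem (Myc), where 6.53% of all genes tested were called. In Ent against Stem 3 were called (Mxd1, Myc and Mycl) where 13.7% of all genes were, and in EEC against Stem 4 (Mxd1, Mxd3, Myc and Mycl) where 14.2% were. No member was called by edgeR in AbsPro or in SecPDG against Stem, where 0.364% and 3.11% of all genes were called. In each of those comparisons 3 members had an unadjusted p under 0.05 and DESeq2 called 1, Mxd1 in AbsPro and Mxd4 in SecPDG. The median log2 fold change of the members was -0.39 in Ent and -0.53 in EEC, against -0.28 and -0.31 for all genes.

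**Figure D3:**
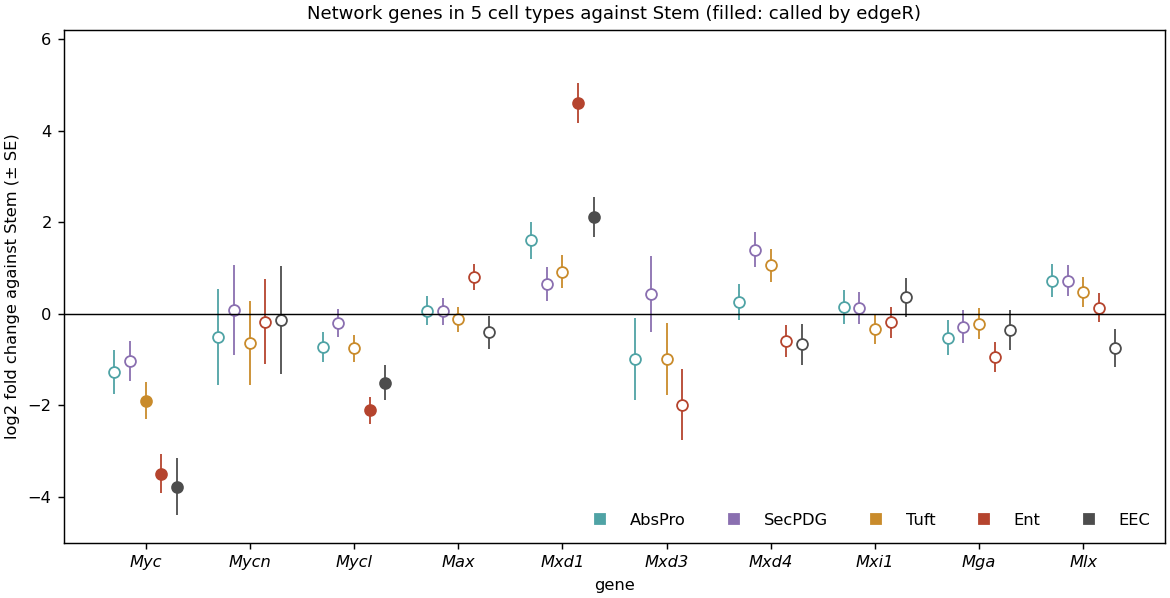
Log2 fold changes of the members in each cell type against Stem from edgeR, with the standard error as bars and filled symbols where a member was called. Mxd1 in Ent is highest at 4.61 and Myc in EEC lowest at -3.78, and Mxd3 in EEC is left out because its 2 libraries held 2 reads together.

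For the steps within lineages, Ent against AbsPro had 3 members called (Mxd1, Myc and Mycl) where 5.13% of all genes were. EEC against SecPDG had 6 (Mlx, Mxd1, Mxd3, Mxd4, Myc and Mycl) where 15.1% were. Tuft against SecPDG and AbsPro against SecPDG had 0 members called by edgeR, where 0.900% and 2.22% of all genes were. At an unadjusted p under 0.05 there were 2 members in each, and DESeq2 called 0 in the former and 1, Mxd4, in the latter. The test over all 6 types called 6 members (Max, Mxd1, Mxd3, Mxd4, Myc and Mycl) where 25.7% of all genes were called. The difference between maturation steps called 1, Mxd1, where 0.268% were.

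The balance of Myc and Mxd1 to Max, as ratios of counts per kilobase of exon, placed the group means of Stem and Ent at opposite ends. Single libraries of other types reached the same ranges, EEC replicate 2 that of Ent for Myc to Max and SecPDG libraries that of Stem for Mxd1 to Max. Myc to Max was 2.22 to 3.14 in Stem, 0.972 to 1.06 in AbsPro and 1.07 to 1.33 in SecPDG. It was 0.260 to 1.15 in Tuft, 0.0565 to 0.202 in Ent, and 0.671 and 0.0569 in EEC. The Stem libraries did not overlap with any other type, and the EEC libraries differed from each other more than Ent libraries did. Mxd1 to Max was 0.164 to 0.220 in Stem and 0.328 to 0.714 in AbsPro. It was 0.157 to 0.510 in SecPDG, 0.266 to 0.511 in Tuft, and lay above 1 in EEC (1.01 and 1.20) and Ent (1.95 to 2.91). Myc to Mxd1 was 10.1 to 18.2 in Stem, 0.0194 to 0.0890 in Ent, and 0.561 and 0.0564 in EEC. These ratios do not depend on the scaling between libraries and were not tested.

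**Figure D4:**
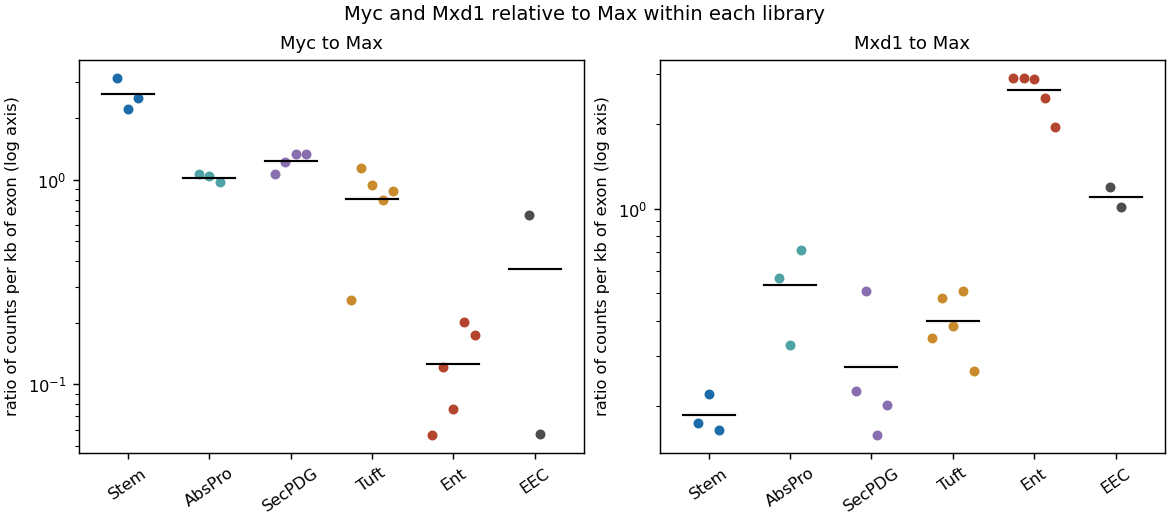
Ratios of counts per kilobase of exon, on a log axis, of Myc to Max and of Mxd1 to Max in the 6 cell types, where each point is a library and the line is the group mean. Myc to Max is 2.22 to 3.14 in Stem and 0.0565 to 0.202 in Ent, and Mxd1 to Max is 0.164 to 0.220 in Stem and 1.95 to 2.91 in Ent.

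The partners outside the set, Mnt, Mlxip and Mlxipl, were taken by name. Mlxipl, the carbohydrate response factor ChREBP, had normalized counts of 1765, 1962 and 2820 in Stem and 1332, 1392 and 1320 in AbsPro. It had 133, 416, 378 and 643 in SecPDG, 405 to 605 in Tuft, 378 to 593 in Ent, and 544 and 435 in EEC. Stem and AbsPro did not overlap with the other 4 types. Mlxipl fell against Stem by 2.48 on the log2 scale in SecPDG (SE 0.35, edgeR adjusted p = 6.71e-06), by 2.17 in Tuft, by 2.22 in Ent and by 2.16 in EEC, and was higher in AbsPro than in SecPDG by 1.78 (SE 0.34, edgeR adjusted p = 0.000964). Mlxip, its relative known as MondoA, fell in Ent by 1.43 (SE 0.34, edgeR adjusted p = 0.00232). Mnt, a Max partner that represses, was 280 to 866 outside EEC and 411 and 1730 in EEC, and was called in none of these comparisons.

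The lists below can be set against all 22781 genes tested. Against Stem, 5, 157, 462, 1806 and 1699 of them were called lower in AbsPro, SecPDG, Tuft, Ent and EEC. Higher calls numbered 78, 552, 1026, 1312 and 1546 in the same order. Of 30 transcripts known as targets of Myc, mostly ribosome production and metabolic genes, 13 fell against Stem in Tuft and 23 each in Ent and EEC, and no listed target rose in these. In AbsPro and SecPDG edgeR called 0, while 6 and 13 had an unadjusted p under 0.05 and DESeq2 called 2 and 6, each of them lower. The medians were -0.47 in AbsPro, -0.64 in SecPDG, -1.21 in Tuft, -1.78 in Ent and -2.38 in EEC, against medians over all genes of 0.04, -0.05, -0.08, -0.28 and -0.31. The leading genes were Fbl, the nucleolar methylase fibrillarin, in Tuft (-2.00), the kinase Cdk4 in Ent (-2.95), and the serine pathway enzyme Shmt1 in EEC (-4.19). With DESeq2 size factors 17, 21 and 20 fell in Tuft, Ent and EEC, and without the 4 libraries 21, 15 and 24.

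Of 7 genes known to be repressed by Myc, Ndrg1, a stress and differentiation gene, rose in SecPDG (3.90) and Tuft (2.99). In Ent 3 rose and 1 fell, led by the cell cycle inhibitors Cdkn2b (4.66) and Cdkn1a (2.71), with Cebpa at -1.49, and in EEC 2 rose and 1 fell. Proliferation genes moved with Myc in the mature types: of 12, 5 fell in Tuft, 12 in Ent and 12 in EEC. Their medians were -1.39, -3.05 and -3.57, against -0.08, -0.28 and -0.31 for all genes. In AbsPro and SecPDG neither edgeR nor DESeq2 called any of the 12, and 8 and 0 had an unadjusted p under 0.05. Of 12 Wnt targets, which include the sort marker Cd44, 2 fell in AbsPro and 1 in SecPDG (Lgr5, -2.30), 4 fell and 1 rose in Tuft (Nkd1, 3.28), and 9 fell in Ent and 8 in EEC.

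Cofactors and corepressors of the network numbered 17, of which 11 fell in Ent against Stem, led by the chromatin ATPase Ruvbl2 (-2.22), Hdac2 (-1.83) and Wdr5 (-1.80). Of all 22781 genes tested, 1806 fell in Ent and 1699 in EEC. In EEC 5 of the 17 fell, led by E2f6 (-2.97), a partner of Mga in its repressive complex. The Ent count was 5 with DESeq2 size factors and 4 without the 4 libraries. Of 12 regulators of Myc protein turnover tested, out of 14 listed, 5 fell in Ent and 3 in EEC, led by the mitotic kinase Aurka (-2.38 and -2.80). In AbsPro, SecPDG and Tuft edgeR called 0 of either list, while 0, 4 and 10 cofactors and 1, 0 and 4 turnover genes had an unadjusted p under 0.05, and DESeq2 called 0, 2 and 4 cofactors and 0, 0 and 1 turnover genes.

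Across the 22 libraries, the genes whose log2 levels followed Myc most closely, out of the 13381 whose normalized counts averaged 50 or more, were Fpgs (Pearson r = 0.958), Kifc1 (0.958), Mcm5 (0.951), Stmn1 (0.950) and Nhp2 (0.950). For Max they were Cxadr (0.908), Themis3 (0.862), Rhbdl2 (0.861), Eif2s2 (0.841) and Trim12a (0.838). Among the members, the most opposed were Mycl and Mxd1 (-0.88) and Myc and Mxd1 (-0.76), and Max was closest to Mxd1 (0.69). These correlations are descriptions, since the points share cell types, depth and the share of reads outside genes.

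The deposited splicing tables compare each cell type with Stem and were tested on the reads joining and skipping each exon. Of the members' skipped exon events, 3, 5, 5, 5 and 2 could be tested in AbsPro, SecPDG, Tuft, Ent and EEC, and 0 were called by edgeR at an adjusted p under 0.05, as were 0% of all events in every table. At an unadjusted p under 0.05 there were 5, 33, 106, 124 and 18 events, out of 3867, 4650, 4726, 3789 and 1445 tested. Each count is smaller than that threshold gives when no event differs. The test was thus conservative, and the lack of calls does not show that splicing was unchanged. Among the members 1 event, the same in Tuft and Ent, had an unadjusted p under 0.05. That event was a 90-base exon of Mlx at chr11:101088236-101088325 (GRCm38), whose Stem libraries had 127, 103 and 107 joining reads and 0 skipping reads. Its inclusion differed from Stem by -8.31 percentage points in Tuft (edgeR adjusted p = 0.623) and by -9.07 in Ent (edgeR adjusted p = 0.589).

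In the tables of 3 prime end use, 6, 6, 5 and 2 transcripts of members could be tested in AbsPro, SecPDG, Tuft and Ent and 0 in EEC. None was called by limma at an adjusted p under 0.05 and 0 had an unadjusted p under 0.05. Of all transcripts 0%, 0.0237%, 0.0614%, 0.0408% and 0% were called, and 196, 205, 169, 209 and 101 had an unadjusted p under 0.05. For Myc the distal share was 8, 22 and 24% in Stem, 15, 13 and 24% in AbsPro, and 8, 27, 29 and 31% in SecPDG. Tuft libraries gave 2, 34, 33, 21 and 25%, and the Stem range overlapped with that of each of these types.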

How the data were processed

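RNA of 22 flow-sorted samples was sequenced. Per the labels and the submitters' processing notes, reads were checked with FastQC 0.11.7, aligned to mm10 with STAR 2.5.2a, handled with SAMtools 1.3 and bedtools 2.25.0, and counted per gene without strand by HTSeq 0.6.1p1. The authors deposited whole-number counts per gene for each library and DaPars tables with the share of distal 3 prime ends as a fraction. They also deposited rMATS tables with counts of reads that join or lie within each exon and of reads that skip it. Shares were deposited without depth, and neither the rMATS nor the DaPars tables tie their places to named libraries. Deposited columns of fold changes, p-values and mean differences were not used. The count tables of SecPDG and Tuft are named in a different way from those of the other 4 types. What this marks is not given, and it cannot be told apart from cell type.

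Counts were fitted in R 4.3.3 with edgeR 4.0.16 (filterByExpr, TMM, glmQLFit and glmQLFTest) over all 22 libraries with cell type as the only term, leaving 22781 genes; the 5 summary entries of HTSeq stayed out. Called genes had an adjusted p (Benjamini-Hochberg) below 0.01 and averaged 50 normalized counts or more. Counts of exon events were tested with edgeR with the library as a block (mean of at least 10 reads per library), and shares with limma 3.58.1 on log2((share + 0.01)/(1 - share + 0.01)). DESeq2 1.42.0 was an alternative. Of the counted genes 98.5% matched GENCODE on GRCm38 by symbol for exon lengths and positions. Background per kilobase of exon was estimated from 1555 genes of 6 families not known to be transcribed in colon epithelium. Intervals cover counting error only, as reads carry no molecular identifiers. The edgeR test of genes (AbsPro and EEC against Stem), the test of exon events and the test of shares were run on simulated data. The other steps were not.

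The members and gene lists were chosen with earlier results of these data known. All 10 members were named, with fold change and test for every call and for Myc, Max and Mxd1 against Stem. For each other list the text gives counts and at most 3 leading genes, and for Myc and Max the 5 most correlated genes. The default form of glmQLFit was run first. After its counts of called genes were seen, 6 other forms, the edgeR 4 form among them, were added, and members were seen under that form before the default, which was kept. Other alternatives were DESeq2 size factors, library totals, fits of only the types compared, the replicate number as a block, each replicate left out, and, chosen after seeing the data, background subtraction and leaving out libraries with over 80% of reads outside genes.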

Additional observations from a re-analysis of the deposited data

Results flagged for a closer look

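Mxd3 in Ent replicate 1, at 63.4 normalized counts, lay far above the other 4 Ent libraries, which held 21.7 to 33.0. The gap was a share of 0.730 of the range of the group, and of the 30 groups of 4 or 5 libraries checked for the members this was the 1 found, where chance gives about 1 in 20. Estimated background made up 32.2 to 59.2% of the Mxd3 counts in Ent.

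The step of Mxd1 from AbsPro to Ent exceeded that from SecPDG to Tuft by 2.74 on the log2 scale (SE 0.49, edgeR adjusted p = 0.00227). All 5 Ent libraries lay above all 3 AbsPro libraries, and the Tuft libraries overlapped with SecPDG.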

How the results depend on the processing

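Among the fold changes of called members and of Myc, Max and Mxd1 against Stem recomputed, 989 kept their direction and their side of the threshold, 49 lost the call, 19 gained it and 7 changed sign. In these all 7 were of Max: 0.24 (DESeq2 test), 0.24 (DESeq2 size factors) and 0.093 (without the 4 libraries with over 80% of reads outside genes) in EEC against Stem, -0.16 in SecPDG against Stem (library totals), and 0.0851, 0.0853 and 0.0778 in Tuft against Stem (DESeq2 test, DESeq2 size factors, background subtracted). The cause was not tested. Fold changes that were not called turned with the scaling in other members too, as with DESeq2 size factors in EEC against Stem for Mga (-0.35 to 0.23), Mlx (-0.74 to 0.04) and Mycn (-0.13 to 0.93), and in Ent against Stem for Mxi1 (-0.18 to 0.36). Myc, Mycl, Mxd1, Mxd3 and Mxd4 kept their direction in each called comparison with each alternative. Mycn was low, and its extremes of 8.79 and 150 normalized counts were both Stem libraries, with 13 and 186 reads. Mxd3 in EEC rested on 2 reads.

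The number of members called moved over 1.5 times in these cases. In AbsPro against Stem (0) it was 1 at an adjusted p under 0.05, 1 with DESeq2, 2 in a fit of only the types compared, 2 without the 4 libraries and 0 to 1 with a replicate left out. In SecPDG against Stem (0) it was 1 at an adjusted p under 0.05, with DESeq2, with its size factors, with library totals, with background subtracted and in each of 4 edgeR 4 forms, 2 in a fit of only the types compared, 2 without the 4 libraries and 0 to 1 with a replicate left out. In Tuft against Stem (1) it was 3 at an adjusted p under 0.05, 3 with DESeq2, 2 with its size factors, 2 with library totals, 3 with only the types compared, 0 with background subtracted, 2 without the 4 libraries and 0 to 2 with a replicate left out. In Ent against Stem (3) it was 6 at an adjusted p under 0.05, 5 in the edgeR 4 form with and without its own dispersion and 3 to 5 with a replicate left out. In EEC against Stem (4) it was 1 with only the types compared, where 5 libraries remain. In AbsPro against SecPDG (0) it was 1 with DESeq2, its size factors, library totals, only the types compared and without the 4 libraries, and 0 to 1 with a replicate left out. In Ent against AbsPro (3) it was 5 at an adjusted p under 0.05 and 3 to 5 with a replicate left out. In EEC against SecPDG (6) it was 3 with DESeq2 size factors, 3 with library totals, 0 with only the types compared, and 3 to 6 with a replicate left out. The difference between maturation steps (1) was 2 with DESeq2, 2 with its size factors and 0 to 1 with a replicate left out.

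Replicate numbers did not pair the samples. Of 44 pairs with the same number in different types 14 had deviations correlated over 0.1, and of 154 pairs with different numbers 45. With the replicate block, 3 members were called in EEC against SecPDG in place of 6 (Mxd1, Mycl and Mlx were lost, at edgeR adjusted p = 0.0114, 0.0153 and 0.0136), and no other count of members moved over 1.5 times.

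Counts of all genes called in AbsPro, SecPDG, Tuft, Ent and EEC against Stem were 83, 709, 1488, 3118 and 3245. They were 134, 1136, 2803, 5177 and 4650 with the edgeR 4 form, 424, 1850, 3834, 5239 and 5680 with DESeq2, 310, 1805, 2577, 4998 and 261 with only the types compared, 298, 1490, 2535, 1621 and 2545 without the 4 libraries, and 45, 758, 1183, 1970 and 2582 with background subtracted. In AbsPro against SecPDG, Ent against AbsPro, Tuft against SecPDG and EEC against SecPDG they were 506, 1169, 205 and 3451, and 848, 3793, 779 and 4943 with the edgeR 4 form. The share of calls that were higher was 42.1% in Ent and 47.6% in EEC against Stem, but 69.7 and 72.3% with DESeq2 size factors and 63.0 and 57.8% with library totals. In SecPDG against Stem it was 77.9%, and 54.3% with library totals. In AbsPro against SecPDG it was 45.5% and 58.2% with library totals. With DESeq2 size factors it went from 38.0 to 69.3% in Ent against AbsPro, from 44.8 to 70.0% in EEC against SecPDG and from 31.1 to 57.9% in the difference between maturation steps.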
